A study of Mus musculus with 6 samples.

Results

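The matrix metalloproteinases (MMPs) and the tissue inhibitors of metalloproteinases (TIMPs) were described here in the lung of mouse embryos at E11.5, the embryonic day when side branches form on both lungs. The members are 10 genes chosen by name, 6 Mmp genes, 3 Timp genes and Adamts1, and every probe set whose only gene symbol was one of these names was taken. This gave 13 probe sets for 8 genes, among 12422 probe sets that were not controls and 8251 genes with a symbol of their own. Mmp15 and Mmp23 are not the only symbol of any probe set in the platform annotation, and these 2 genes were not analysed here. RNA of the branching region, dissected from the right and the left lung, was set against RNA of the non-branching region, which held both main bronchi and a part of the trachea, with 3 arrays for each region and 1 sample on each array. The labels name no strain, genotype or treatment for either region and do not say whether the samples came from separate embryos, so each p-value reflects the spread among these particular samples, and that spread may be technical.

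MMPs are zinc-dependent proteases that cut collagens and other proteins of the extracellular matrix. Most are secreted as inactive proenzymes, and a subgroup is held at the cell surface by a membrane anchor. TIMPs are small secreted proteins that block the active site of MMPs. The systems meet at the cell surface, where TIMP2 bound to the membrane-type enzyme MMP14 captures the proenzyme of MMP2, which a neighbouring MMP14 molecule then cuts into its active form. In the embryonic lung, epithelial buds grow into a mesenchyme whose matrix is remodelled as they branch, and mice without Timp3 are known to have reduced bronchial branching.

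Of the members, Mmp14 was lower in the branching region, by 1.52-fold, and it was the 1 gene of this family that passed the test, where 1.32% of all genes tested were called lower. Mmp11 and Timp2 also had all 3 branching arrays below all 3 non-branching arrays, as did 11.7% of all genes, but neither passed. Timp1 and Timp3 had higher means in branching, with groups that overlapped. Mmp9 and Adamts1 were at background on all 6 arrays, and Mmp2 was at background in the branching region. Signals are the deposited intensities on a linear scale, differences are log2 of branching over non-branching, each with its standard error (SE) from a limma fit across 9316 probe sets, and a gene was called at a Benjamini-Hochberg adjusted p under 0.05. A signal was taken as background at or below 147, the 95th percentile of 114 values from 19 controls that detect bacterial and yeast RNA. Taken on each array alone, this percentile ran from 109 to 160, so a signal near 147 is not clearly on either side. Levels were not compared between genes, because each probe set binds its own target with its own strength.

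The 6 arrays had been scaled to a common level, and their medians ran from 212 to 229. Over all genes, with 1 probe set each, 90 were lower and 68 higher in branching among 6798 tested. The 3'-to-5' log2 difference of the actin control, a measure of RNA integrity, ranged from 0.20 to 0.49 except on non-branching replicate 3, where it reached 0.75. That of the Gapdh control ran from -0.17 to 0.06 and did not set this array apart, at -0.16. Non-branching replicate 2 had the highest median of those bacterial and yeast controls, 78.8 against 19.8 to 40.7 elsewhere.

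Mmp14 (Entrez gene 17387) encodes the membrane-type protease that cleaves fibrillar collagen at the cell surface and activates pro-MMP2. Its signal was 2698, 3018 and 2767 on the 3 branching arrays and 4049, 4432 and 4408 on the 3 non-branching arrays. The lowest non-branching array thus lay above the highest branching array. The means were 2828 ± 168 (SD, n = 3) and 4296 ± 215. On the log2 scale Mmp14 fell by 0.60 ± 0.09 in the branching region (limma adjusted p = 0.0131, SE of the limma fit, 3 arrays per region). This corresponds to a 1.52-fold lower signal with a 95% interval of 1.31 to 1.76. The call was lost without branching replicate 3 (adjusted p = 0.0699), without non-branching replicate 2 (adjusted p = 0.0638) and without non-branching replicate 3 (adjusted p = 0.0757), while the difference stayed between -0.65 and -0.57 over the 6 omissions. The call was also lost when the variance was not modelled as a trend on mean signal (adjusted p = 0.192).

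Mmp11 (Entrez gene 17385) encodes stromelysin-3, a secreted MMP that is activated inside the cell by furin-type convertases and is known from mesenchymal cells next to epithelium. Its signal was 222, 204 and 287 in branching and 455, 480.4 and 386 in non-branching. All 6 values were above background and the regions did not overlap. The difference was -0.90 ± 0.25 on the log2 scale (SE of the limma fit, 3 arrays per region), with a 95% interval of -1.46 to -0.34. It did not pass the limma test (adjusted p = 0.119). Both the difference and its standard error were larger than those of Mmp14, and the 2 genes were not tested against each other.

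Timp2 (Entrez gene 21858), the inhibitor that also takes part in pro-MMP2 activation by MMP14, had 3 probe sets, and 1 of them gave signal above background. That probe set read 559, 512 and 594 in branching and 796, 745 and 942 in non-branching. The regions did not overlap, and the difference was -0.57 ± 0.17 on the log2 scale (SE; limma adjusted p = 0.136), with a 95% interval of -0.95 to -0.20. The difference had the sign of that of Mmp14 and nearly its value, with a larger standard error. The other 2 Timp2 probe sets read 21.7 to 87.5 and 8.4 to 32.0 over the 6 arrays, all at background, and were too dim to be tested.

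The sequence before the annotated gene start is shown for these 3 genes because they are the members whose regions did not overlap. Each line gives 250 bases upstream of the start, 5′ to 3′ on the strand of the gene, from RefSeq promoters on GRCm38.p6. Capitals mark matches to the GC box, the letters GGGCGG on either strand, which members of the Sp family of factors can bind.
Mmp14, chr14:54431348-54431597, + strand: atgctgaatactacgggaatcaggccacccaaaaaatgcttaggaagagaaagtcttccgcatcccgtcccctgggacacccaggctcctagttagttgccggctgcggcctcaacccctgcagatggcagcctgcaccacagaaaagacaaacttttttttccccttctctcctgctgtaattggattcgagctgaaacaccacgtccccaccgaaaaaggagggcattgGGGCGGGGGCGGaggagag
Mmp11, chr10:75932503-75932752, - strand: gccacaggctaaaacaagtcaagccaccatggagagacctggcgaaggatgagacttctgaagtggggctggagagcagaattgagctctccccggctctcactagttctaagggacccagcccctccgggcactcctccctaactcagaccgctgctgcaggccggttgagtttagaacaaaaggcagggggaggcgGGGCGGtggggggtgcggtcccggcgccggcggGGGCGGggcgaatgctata
Timp2, chr11:118355412-118355661, - strand: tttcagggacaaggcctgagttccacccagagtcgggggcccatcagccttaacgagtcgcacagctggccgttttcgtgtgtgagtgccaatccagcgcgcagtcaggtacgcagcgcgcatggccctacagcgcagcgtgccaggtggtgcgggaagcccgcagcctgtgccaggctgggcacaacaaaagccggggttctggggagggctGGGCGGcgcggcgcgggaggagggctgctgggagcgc

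The upstream window of Mmp14 held 2 GC boxes that adjoin each other, 8 to 19 bases before the start, and that of Mmp11 held 2, of which the nearer lay 14 to 19 bases before the start. The Timp2 window held 1, 32 to 37 bases before the start. A GC box was also present in the windows of Timp1 and Timp3, with 1 each, and of Adamts1, with 3, so that genes with lower means, genes with higher means and a gene at background all had one. Of the members without a probe set of their own, Mmp15 had 1 GC box in its window, and Mmp23 had none in either of its windows. Among all 32851 windows of the table, 32.7% held a GC box. The GC content of the windows was 55.2% for Mmp14, 63.2% for Mmp11, 68.0% for Timp2, 54.4% for Timp1, 65.6% for Timp3 and 65.6% for Adamts1, against a median of 52.4% over all windows. The AP-1 letters TGANTCA, read on both strands, were in none of these 6 windows and in 6.75% of all windows. The TATA letters TATAA, on either strand, were in the windows of Timp3 and Adamts1 and in 22.8% of all windows. These matches describe letters in a window and not sites at which a factor was measured.

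Timp1 (Entrez gene 21857) encodes a secreted inhibitor that blocks most soluble MMPs but is weak against the membrane-type enzymes. Its brighter probe set read 2349, 1145 and 1257 in branching and 1159, 684 and 1701 in non-branching. The regions overlapped, and the arrays within each region differed more than 2-fold. The difference was 0.44 ± 0.35 on the log2 scale (SE; limma adjusted p = 0.625), with a 95% interval of -0.34 to 1.22, and it ran from 0.10 without non-branching replicate 2 to 0.75 without non-branching replicate 3. The second Timp1 probe set, which its name marks as a less specific design, was at background on all 6 arrays, at 1.3 to 94.0.

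Timp3 (Entrez gene 21859) encodes the inhibitor that binds to the matrix and also blocks ADAM17 and ADAMTS enzymes. It read 561, 428 and 463 in branching and 334, 312 and 455 in non-branching. Non-branching replicate 3 lay within the range of the branching arrays, and the other 2 non-branching arrays lay below it. The difference of 0.41 ± 0.23 on the log2 scale had a 95% interval of -0.11 to 0.93 (SE, n = 3 per region, limma adjusted p = 0.462).

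Mmp2 (Entrez gene 17390), the gelatinase that MMP14 activates, was dim on this array. Its brighter probe set read 144, 84.4 and 31.9 in branching, all at background, and 79.1, 249.8 and 381 in non-branching, where 2 of 3 arrays were above background. The regions overlapped, and limma did not call the difference (adjusted p = 0.413), for which no fold is given. The other Mmp2 probe set was at background on all 6 arrays, at 24.9 to 118.

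Mmp9 (Entrez gene 17395), the second gelatinase gene, known from neutrophils, macrophages and osteoclasts, was at background with both of its probe sets. They read 24.6 to 67.4 and 17.2 to 83.3 over the 6 arrays. Of 9 leukocyte markers, Ptprc, Itgam, Lyz2 and Adgre1 were at background on all 6 arrays, Elane, Csf1r and Cd52 were above it on all 6, and Cd68 and Mpo were above it on some. Adamts1 (Entrez gene 11504), a secreted protease that cleaves the proteoglycans aggrecan and versican, was read by a single probe set of a less specific design at 0.7 to 55.3. At these signals neither a difference between the regions nor its absence can be read for Mmp9 or Adamts1.

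Taking 1 probe set per gene, 6 of the 8 genes were bright enough to be tested, and limma called 1 lower (Mmp14) and 0 higher, where 1.32% of all genes tested were called lower and 1% higher. At an unadjusted p under 0.05, 3 of the 6 were lower (Mmp14, Mmp11 and Timp2) and 0 were higher, against 8.43% of all genes lower and 7.16% higher. The regions did not overlap for the same 3 genes, all lower in branching, against 11.7% of all genes in that direction. Among the 6798 genes tested, 793 did not overlap with branching lower and 691 with branching higher. The median difference of the 6 genes was -0.59 on the log2 scale, and that of all genes tested was -0.01. By role, the 3 protease genes tested, Mmp2, Mmp11 and Mmp14, had negative differences. That of Mmp2, which also enters the median, rests on branching values at background and on regions that overlapped. The 3 inhibitor genes split, with Timp2 negative and Timp1 and Timp3 positive. With 6 genes these counts are a description of the family and no test of it.

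**Figure D1:**
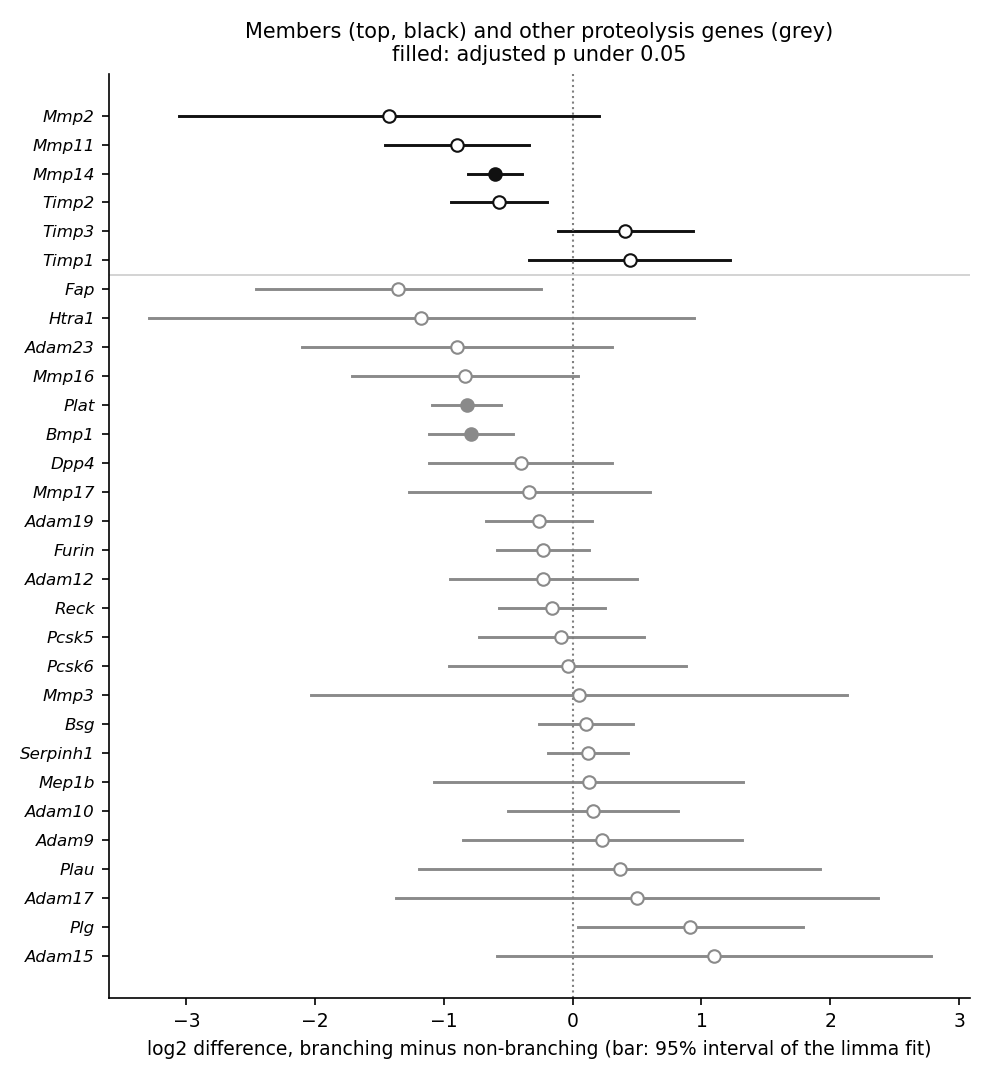
Difference between the regions on the log2 scale, branching minus non-branching, for the 6 members tested (black, top) and the 24 other proteolysis genes tested (grey). Bars are 95% intervals of the limma fit, and filled points passed at an adjusted p under 0.05. Mmp14, Plat and Bmp1 are filled, and all 3 are lower in branching. The difference of Mmp2 rests on branching values below the background level.

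The other genes of matrix and cell-surface proteolysis, 53 by list, comprise the remaining Mmp genes, ADAM and ADAMTS proteases, plasminogen activators and their partners, proenzyme convertases, the procollagen protease gene Bmp1 and its relative Tll1, and further proteases and protease-related genes such as Fap, Htra1 and Reck. Of the 35 with a probe set, 24 were tested, and 2 fell, 0 rose and 22 did not pass, with 1.32% of all genes called lower. At an unadjusted p under 0.05, 3 were lower and 1 was higher, against 8.43% of all genes lower and 7.16% higher. The median difference of these 24 genes was -0.13. Plat, the tissue-type plasminogen activator gene, read 1142, 1288 and 1276 in branching and 2384, 2008 and 2173 in non-branching. Plat fell by 0.82 ± 0.12 in log2 terms (limma adjusted p = 0.00856, SE of the limma fit, 3 arrays per region). Its call was lost without non-branching replicate 3 (adjusted p = 0.052) and without the variance trend (adjusted p = 0.123). Bmp1, which encodes the protease that removes the C-terminal propeptide of fibrillar procollagens, read 1466, 1108 and 1079 in branching and 2214, 2141 and 1904 in non-branching. It fell by 0.79 ± 0.15 (adjusted p = 0.0265), but passed in only 1 of the 6 omissions of an array, that of branching replicate 1, with adjusted p-values up to 0.107 in the others, and was lost with no filter on dim probe sets (0.0811) and without the variance trend (0.19). A second Bmp1 probe set differed by -0.82 ± 0.18 and just missed the threshold (adjusted p = 0.0546).

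The remaining Mmp genes on the array are named here for their family, after their values were seen. Mmp7, Mmp8, Mmp10, Mmp12, Mmp13 and Mmp24 were at background on all 6 arrays with every probe set and were not tested. Mmp13, the collagenase-3 gene known from cartilage and bone, read 15.9 to 41.6 in branching and 3.8 to 9.4 in non-branching, all far below the background level. Mmp16, a membrane-type relative of Mmp14, read 103, 151 and 82.5 in branching and 203, 177 and 205 in non-branching. The regions of Mmp16 did not overlap, but 2 of 3 branching arrays were at background and limma did not call it (adjusted p = 0.367). Mmp17, a further membrane-anchored enzyme gene, overlapped between the regions, with means of 148 ± 53.8 (SD, n = 3) in branching, where 1 of 3 arrays was above background, and 185 ± 55.6 in non-branching (limma adjusted p = 0.777). Mmp3, the stromelysin-1 gene, crossed the background level in both regions and had no stable sign (limma adjusted p = 0.99).

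**Figure D2:**
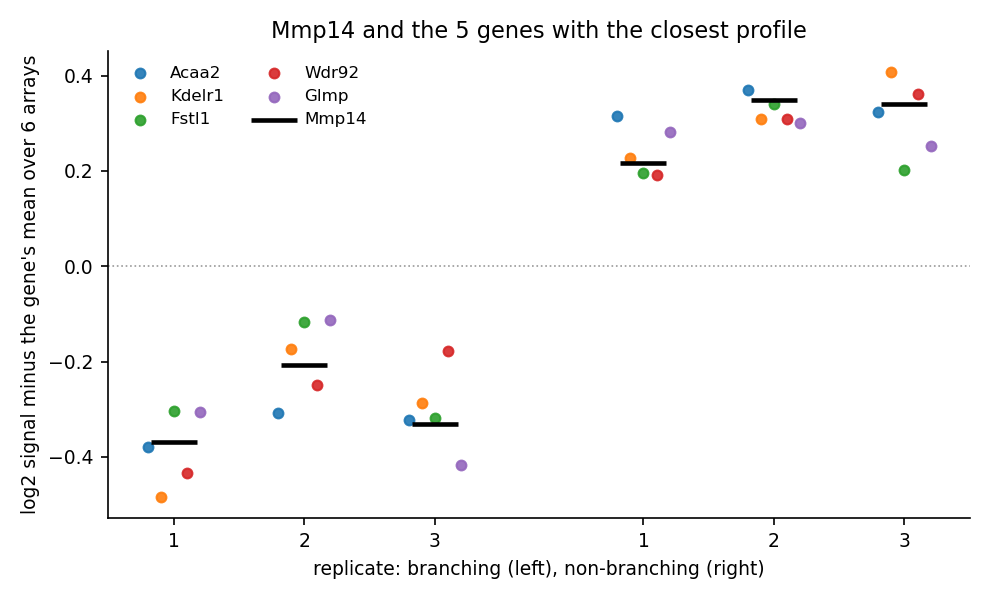
The log2 signal of Mmp14 (black bars) and of the 5 genes closest to it (points), each minus its own mean over the 6 arrays, by replicate in branching (left) and non-branching (right). All 6 genes are below their mean on the branching arrays and above it on the non-branching arrays. The 5 genes were chosen for closeness to Mmp14 on these same arrays, so their shared direction follows from the choice.

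Among all tested genes with 1 symbol, the 5 whose centred log2 signals over the 6 arrays lay nearest to those of Mmp14 were Acaa2, Kdelr1, Fstl1, Wdr92 and Glmp. Their root mean square distance from Mmp14 was 0.059 to 0.075 on the log2 scale. They were chosen by this distance on the same 6 arrays, so a lower signal in branching was built into the choice. The limma results below describe these 5 genes and are no separate evidence on Mmp14. Acaa2 encodes a mitochondrial thiolase, Kdelr1 a receptor that returns proteins to the endoplasmic reticulum, Fstl1 a secreted follistatin-like glycoprotein and Glmp a lysosomal membrane protein. The mean signal of Acaa2 was 2226 ± 56.8 (SD, n = 3) in branching and 3549 ± 71.5 in non-branching, and that of Fstl1 was 1853 ± 148 and 2603 ± 150.3. Acaa2, Kdelr1 and Wdr92 passed the limma test (adjusted p = 0.00658, 0.0246 and 0.0375), and Fstl1 and Glmp did not (adjusted p = 0.0565 and 0.0671). Of these, Acaa2 passed whichever array was left out, Kdelr1 in 1 of 6 omissions and Wdr92 in 0 of 6, where its adjusted p was 0.0617 to 0.172, and none of the 3 passed without the variance trend (0.136 to 0.238). The call of Kdelr1 was also lost with no filter (0.0658) and with the replicate block (0.051), and that of Wdr92 with no filter (0.0702), with the block (0.0765) and with each array centred on its median (0.0612).

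Beside these member values, markers of the cell types in the dissected pieces moved between the same arrays. The summed signal of 10 mesenchymal markers, of which 5 were lower and 0 higher in branching, was 16711 to 17057 in branching and 30920 to 31925 in non-branching. Each such sum follows its brightest probe sets and does not measure a share of cells. In this list the brightest were Col1a2 (mean 5394 against 11085) and Col1a1 (4929 against 9383). The median difference of the 10 markers was -0.84, with 9 negative and 1 positive. At an unadjusted p under 0.05, 7 of the 10 were lower and 1, Foxf1, was higher (572 against 244, limma adjusted p = 0.145). Over all genes tested, 8.43% were lower and 7.16% higher at that unadjusted p, and limma called 1.32% lower and 1% higher. The sum of 6 smooth muscle markers, of which 5 were lower, was 4846 to 5137 and 9817 to 11191. The sums of the markers on the array were also lower in branching for cartilage (3 of 5 tested lower, 2775 to 3319 against 5588 to 6138, with Acan and Matn1 at background throughout), cardiac muscle (1 of 7 tested lower, 2302 to 2339 against 3652.5 to 4520, with Myh6 at background throughout), endothelium (1 of 8 lower, 3823 to 4331 against 4960 to 5135) and neurons and neural crest (1 of 5 tested lower, 3467 to 3986 against 4202 to 4591, with Nefl, Elavl4 and Ret at background throughout). In the cartilage list 4 differences were negative and 1, that of Col2a1, was positive (251 against 212.5). The cardiac gene called lower was Actc1 (630 against 1621), on a probe set whose name marks a less specific design. All 7 cardiac differences were negative, that of Myh7 at -0.02. The endothelial gene called lower was Vwf, at background on all 3 branching arrays. All 8 endothelial differences were negative, but Eng, the brightest, was nearly level (1924.5 against 1954). In the neuronal list the gene that was lower was Sox10, at 829 against 1718, while the median difference of the 5 tested was 0.16 and 3 of 5 were positive. The sums were higher in branching for red blood cells (3 of 5 higher, 135955 to 151210 against 87747 to 95262), leukocytes (1618 to 1924 against 1275 to 1576) and epithelium (5819 to 6347 against 4922 to 5432). Limma called 0 of 9 epithelial and 0 of 5 leukocyte markers tested, with 1 epithelial marker lower and 2 higher and no leukocyte marker at an unadjusted p under 0.05. In the epithelial list Sftpc (757 against 227) and Cldn6 (1314 against 857) had the largest rises in mean signal. Foxa2 (548 against 841) and Foxa1 (270 against 365) were lower in branching. The median difference of the 9 tested was 0.06, with 6 positive and 3 negative. The part of all these cell type markers in the lower signal of Mmp14, Mmp11 and Timp2 was not tested. In whole pieces of tissue fewer cells of a type and less RNA per cell cannot be told apart.

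**Figure D3:**
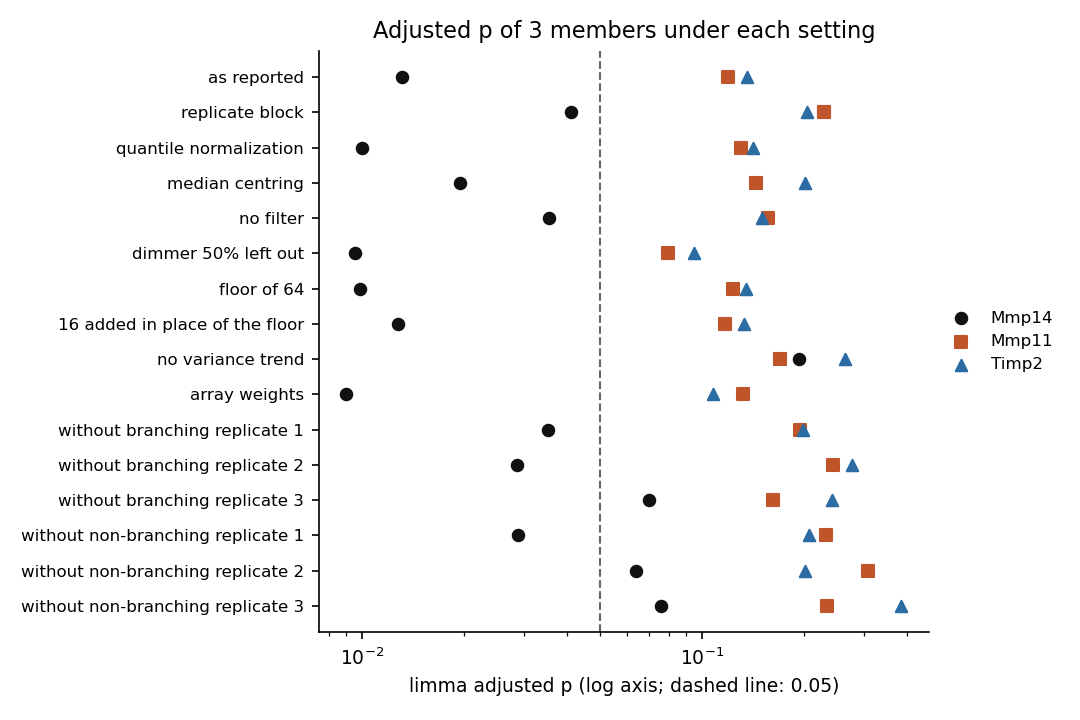
The limma adjusted p of Mmp14, Mmp11 and Timp2 as reported and under each other setting, on a log axis with the threshold of 0.05 as a dashed line. Mmp14 lies below the threshold as reported and in 8 of 9 other settings and 3 of 6 omissions of an array. Mmp11 and Timp2 lie above it throughout and did not pass.

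Mmp11 and Timp2 did not pass under any of 9 other settings or 6 omissions of an array. The adjusted p of Mmp11 was 0.0797 to 0.307 over these, with differences of -1.05 to -0.80. That of Timp2 was 0.0947 to 0.385, with differences of -0.65 to -0.48. Both genes thus kept their sign throughout.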

How the data were processed

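The deposited table holds 1 intensity per probe set and array on a linear scale. The authors' software and summary method are not given in the sources used here. Leaving out the top and bottom 2% of its deposited values, every array averaged 500.3, which shows a scaling made before deposit. Replicate numbers and groups come from the sample titles.

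Of 12488 probe sets, 66 controls were left out. Values below 16 were set to 16, log2 was taken, the dimmest 25% were left out, and 9316 probe sets were fitted by region with limma 3.58.1 (R 4.3.3; lmFit, then two-sided eBayes with a variance trend and Benjamini-Hochberg adjustment). The floor understates changes of dim genes. A gene was represented by its probe set with the highest mean log2 signal. Gene symbols came from the platform annotation, in which 10833 probe sets had 1 symbol, 396 several and 1193 none. The Entrez gene number of each of the 8 measured members matched the RefSeq gene table. Promoter windows came from a set of RefSeq promoters that held 8 of the 10 members, with no window for Mmp2 and Mmp9. No genome build is given for the array values.

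On data simulated for this comparison, with 200 changed among 9316 probe sets, 27.4% of those changed 2-fold and 62.2% of those changed 4-fold were recovered, and 6.24% of the calls were unchanged probe sets. Named were all members, called genes of the proteolysis list, and the 5 genes nearest to each called member. Members, lists and tests were chosen with earlier results of these data known. The alternatives were a replicate block, other normalizations, filters, floors and variance models, array weights, a threshold of 0.10, any probe set of a gene, and leaving out each array. Precision is limited by having 3 arrays per region.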

Additional observations from a re-analysis of the deposited data

How the results depend on the processing

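Mmp14 was the called member under all settings run except without the variance trend, where 0 members were lower by limma, and 3 of 6 omissions of an array, so that the count was 0 to 1 over the omissions. No member rose under any setting. The differences of the 6 members tested kept their sign throughout. The other proteolysis genes called lower numbered 1 with no filter on dim probe sets, 0 without the variance trend and 0 to 2 over the omissions, against 2 as reported. Over all probe sets, 84 were higher and 105 lower as reported, 38 and 62 with no filter, 5 and 17 without the variance trend, and 164 and 195 at an adjusted p under 0.10. Over the omissions the higher ones numbered 16 to 69 and the lower ones 38 to 98. Each omission leaves fewer arrays, and otherwise the cause was not tested. With the replicate number as a block, 44 probe sets were higher and 70 lower, and Mmp14 passed (limma adjusted p = 0.0411). The deviations of same-numbered arrays had correlations of -0.0023, 0.0127 and -0.015 over the 3 numbers. Over all pairs of a branching and a non-branching array they ran from -0.049 to 0.052. With 3 arrays per region such values cannot tell whether same-numbered samples shared an origin, which the labels do not give. The uncalled difference of Mmp3 changed sign with array weights, to -0.38, and ran from -0.57 to 1.01 over the omissions, with signals near background. Mmp2 was not tested with the dimmer 50% left out. Intensity carries no read depth, and the background level of 147 limits what can be said of Mmp2, Mmp9 and Adamts1.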
